A study of Mus musculus with 24 samples.

Results

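The genes described here are those of the lysosome and of its proton pump, the vacuolar H+-ATPase or V-ATPase, in mouse T11 cells given the peptide FPP-1746-Omomyc. They are 30 genes listed by name and all 23 records whose symbol begins with Atp6v, 53 of the 23235 gene records in the deposited table. The list was chosen by a reading of the mean FPKM of these same groups, so the difference between the fusion peptide and PBS had been seen when the genes were picked, and that difference is given below as a description. T11 cells come from a mammary tumour of the mouse and are of the claudin-low type, a class of breast tumour with mesenchymal features. Its cells carried a luciferase gene and were grown in RPMI with 1% serum in every group. The 8 groups were the fusion FPP-1746-Omomyc, each of its parts alone (Omomyc or FPP-1746) and PBS, for 3 h or 6 h, with every peptide at 5 µM. Each group had 3 biological replicates, 24 samples of total RNA in all. Omomyc is an altered dimerisation domain taken from the transcription factor MYC, FPP-1746 belongs to the peptides that carry cargo into cells, and the fusion joins both in 1 molecule. The 3 samples titled as fusion at 6 h carry a treatment tag of 3 h, and the titles and the column name were followed.

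The lysosome is the acidic compartment in which the cell breaks down proteins, lipids, glycans and nucleic acids. The V-ATPase pumps protons into it: its cytosolic V1 sector hydrolyses ATP, and its membrane-embedded V0 sector carries the protons across. Many lysosomal genes are driven by the transcription factors TFEB, TFE3 and MITF, which bind an E-box with preferred flanks known as the CLEAR element, and which are kept in the cytoplasm by mTORC1 at the lysosomal surface when nutrients are plentiful. MYC and its partner MAX, and Omomyc as a MYC derivative, also bind E-boxes.

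The authors' table gives 1 value per gene and group, the mean FPKM (fragments scaled by transcript length and library size) of that group. Replicate values were not analysed here, so no value has an error, no test was made, and every difference is without a replicate check. Ratios are of FPKM + 1, given on the log2 scale, and the added 1 makes the ratios of weakly expressed genes too small. A gene was called higher or lower at a ratio of at least 2-fold. Counts cover the 10262 genes whose FPKM averaged 1 or more across all 8 columns. Of the 53 members, 44 passed that filter, made up of 29 of the 30 listed genes and 15 of the 23 Atp6v records.

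In 36 of these 44 genes a RefSeq promoter window (250 bases before to 50 bases after the start site, build GRCm38.p6) could be matched, and it shows the E-box letters in 14 of them. The stretches below are shown because these genes span the range of the response, from Gla, the gene with the highest ratio, to Sgsh, which stood below PBS. Capitals mark CACGTG, and each sequence is read on the strand of its gene. Of the matches of Ctsd only the one nearer to the start is shown. Gla lies on the minus strand at chrX:134601180-134601246, Ctsd on minus at chr7:142387906-142387939, Lamp1 on plus at chr8:13159086-13159160 and Mcoln1 on plus at chr8:3500434-3500493. Atp6v0b lies on minus at chr4:117887330-117887379, Atp6v1a on minus at chr16:44139371-44139404, Naglu on plus at chr11:101070007-101070040 and Sgsh on minus at chr11:119355520-119355553.
Gla: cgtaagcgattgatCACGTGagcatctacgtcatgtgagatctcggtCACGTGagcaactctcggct
Ctsd: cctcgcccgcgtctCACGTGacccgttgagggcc
Lamp1: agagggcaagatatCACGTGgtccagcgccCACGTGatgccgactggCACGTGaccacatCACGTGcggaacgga
Mcoln1: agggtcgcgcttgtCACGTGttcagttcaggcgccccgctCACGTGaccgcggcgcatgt
Atp6v0b: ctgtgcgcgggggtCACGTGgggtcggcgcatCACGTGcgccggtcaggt
Atp6v1a: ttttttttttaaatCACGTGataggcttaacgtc
Naglu: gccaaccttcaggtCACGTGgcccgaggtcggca
Sgsh: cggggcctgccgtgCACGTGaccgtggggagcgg

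Motifs were searched on both strands: CACGTG, the longer TCACGTGA that contains it, and the palindromic form of the CLEAR element, which contains both. A gene was counted once if any of its windows held the letters. CACGTG occurred in 14 of the 36 counted members with a window (38.9%), against 12.6% of the 7334 counted genes with a window and 8.09% of all 27025 genes with a window. TCACGTGA occurred in 7 of the 36 (19.4%), against 2.66% of the counted genes and 1.12% of all genes with a window. The palindrome was in 0 of the 36 members and in 0.982% of the counted genes. The CLEAR element was itself described from promoters of lysosomal genes, so a high share in a list of lysosomal genes is not independent of how such lists are drawn up. By role, the letters CACGTG were found in 8 of 18 genes of lumenal proteins, 2 of 6 of membrane proteins, 1 of 5 V1 genes, 3 of 5 V0 genes and neither of the TFEB family genes.

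Members with and without the letters had similar medians, while the highest ratio of all, that of Gla, was among those with them. The 14 members with CACGTG had a median log2 ratio of fusion over PBS of 0.75 at 3 h and the 22 without it 0.73, and at 6 h the medians were 0.45 and 0.42. At 2-fold, 3 of the 14 and 2 of the 22 were called higher at each time. For other counted genes with a window, the counts at 3 h were 65 of 910 with the letters and 370 of 6388 without. At 6 h they were 80 and 415. The highest member ratio at 3 h was 2.60 with the letters and 1.13 without. Npc1 (1.55 at 3 h), Ctsb (1.32) and Atp6v1b2 (1.25) were called higher at 3 h but had no matched window, so they are in neither group. Among the other counted genes the medians were near 0 with or without the letters, 0.019 and 0.0086 at 3 h and 0.017 and -0.045 at 6 h. Gla, with a ratio of 2.60, carries TCACGTGA at both of its matches, and Sgsh, at -0.13, carries CACGTG within 50 bases of the start. Lamp1 holds 4 matches and had a ratio of 0.80. A match describes these letters only and is not a binding site shown by these data.

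**Figure D1:**
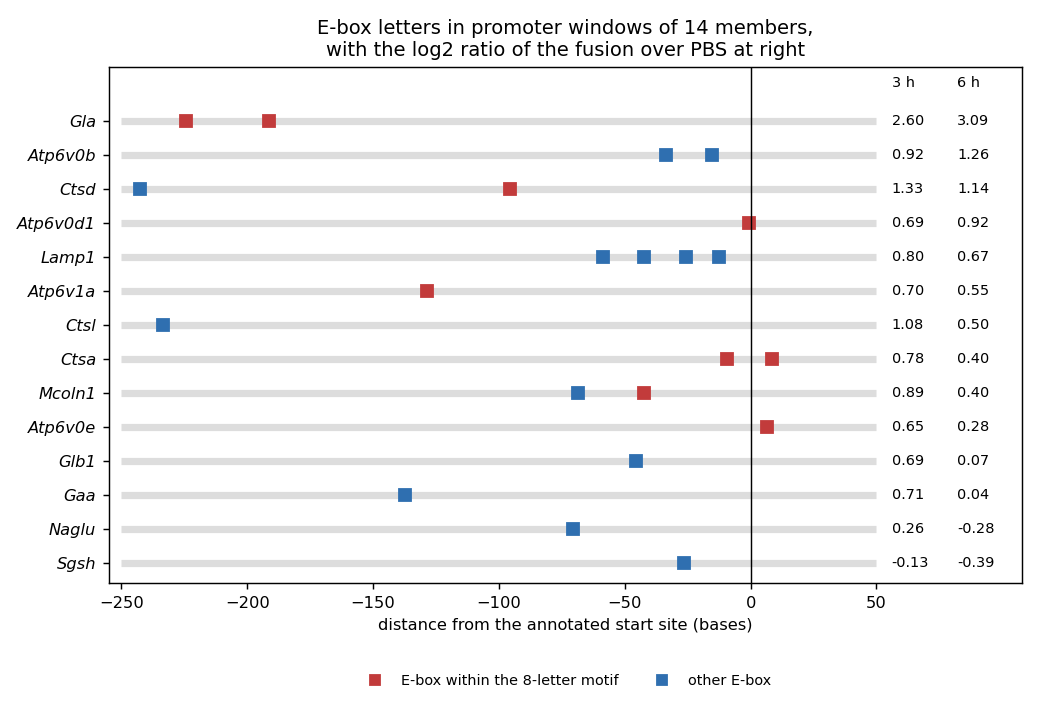
Positions of CACGTG in the RefSeq promoter windows of the 14 counted members that hold it, in bases from the start site, in red where the letters lie within TCACGTGA and in blue elsewhere, with the log2 ratio of FPP-1746-Omomyc over PBS at 3 h and 6 h at the right. The genes run from Gla (2.60 and 3.09) to Sgsh (-0.13 and -0.39). The matches farthest before the start are in Ctsd, Ctsl and Gla, and those of Naglu and Sgsh lie nearer to it.

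FPP-1746-Omomyc was associated with higher mRNA of most lysosomal genes at 3 h, while either part of the molecule alone left them near PBS. At 3 h, 41 of the 44 counted members stood above PBS and 3 below, with a median log2 ratio of 0.73 against 0.0034 over all counted genes. Of the 44, 8 passed 2-fold as higher (18.2%), where 6.13% of all counted genes did, and 0 passed as lower, where 4.42% did. At 1.5-fold the count was 34 of 44, against 15.7% of all counted genes. These shares describe genes picked with this contrast in view and support nothing beyond themselves. In bulk RNA, fewer cells of a type and less RNA per cell cannot be told apart.

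At 6 h the shift was smaller by the median and more mixed, though how much smaller depended on scaling. With quantile normalisation the medians were 0.61 at 3 h and 0.54 at 6 h, and 6 and 11 members passed 2-fold as higher. As reported, 34 of the 44 stood above PBS and 10 below, with a median of 0.47 against -0.026 over all counted genes. At 2-fold 7 passed as higher (15.9%; 7.13% of all counted genes) and 0 as lower (3.34% of all). At 1.5-fold 16 passed, against 17.4% of all counted genes. Gla, Ctsd, Npc1 and Atp6v1b2 were called at both times. Ctsb, Ctsl, Neu1 and Cd68 were called at 3 h only, and Grn, Atp6v1d and Atp6v0b at 6 h only.

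The summed FPKM of all 53 members was, at 3 h, 3265 in the PBS column, 3365 in Omomyc, 3358 in FPP-1746 and 6077 in the fusion. In the same order it was 3215, 3272, 3204 and 4913 at 6 h. As a share of all FPKM in the column the members went from 0.670% to 1.02% at 3 h and from 0.686% to 1.10% at 6 h between PBS and the fusion. The share was thus as high at 6 h as at 3 h although the sum was lower, since the column totals themselves differed.

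**Figure D2:**
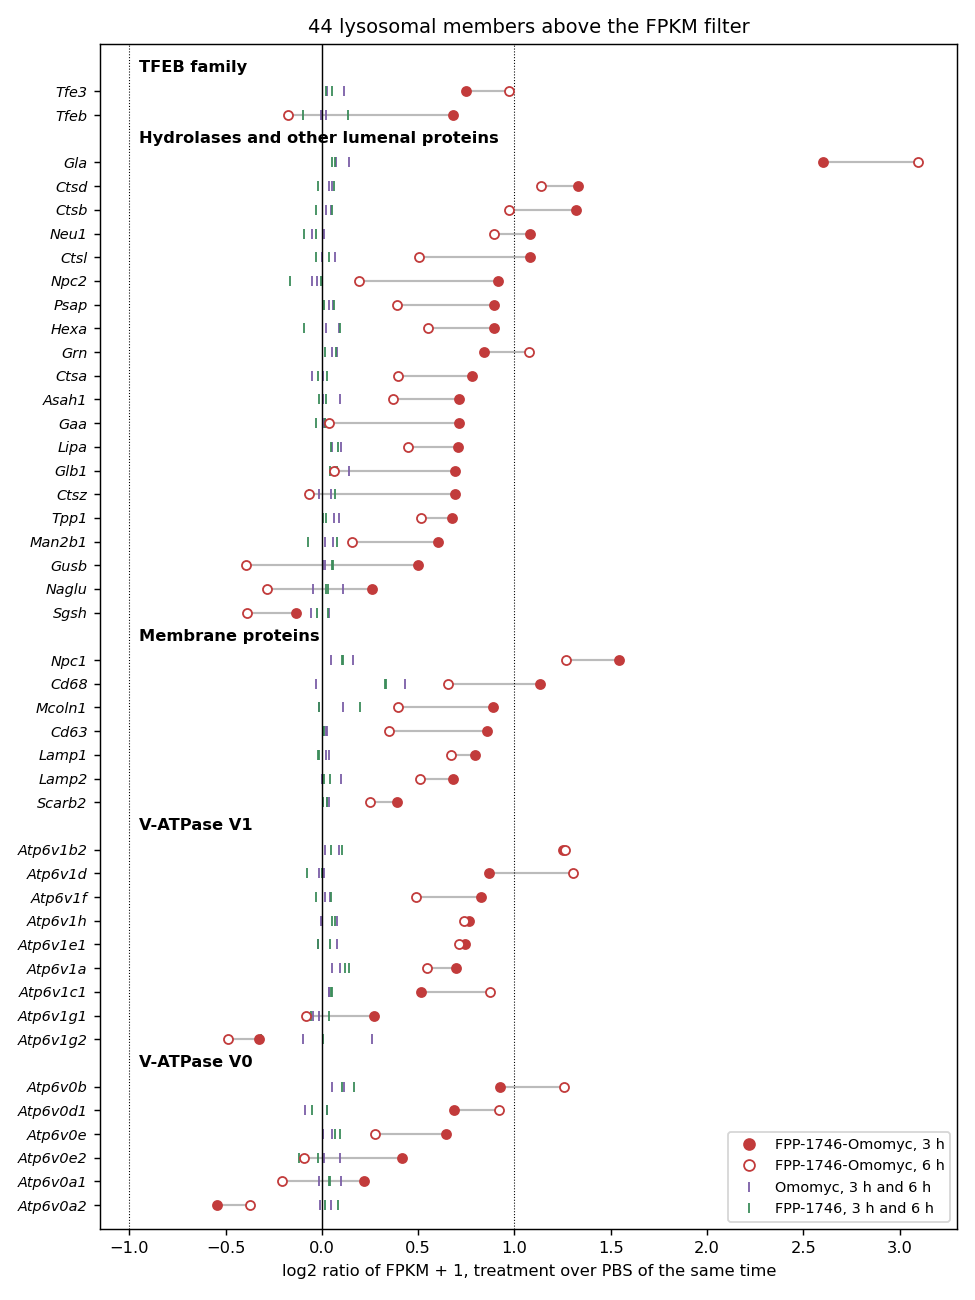
Log2 ratio of FPKM + 1 of each treatment over PBS of the same time for the 44 counted members, grouped by role; filled and open red circles are FPP-1746-Omomyc at 3 h and 6 h, purple and green ticks are Omomyc and FPP-1746 alone, and dotted lines mark 2-fold. The red points reach 3.09 (Gla), while the ticks reach at most 0.43.

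Neither part alone reached 2-fold in any member. Omomyc gave 0 of 44 members past 2-fold in either direction at 3 h, where 0.614% of all counted genes passed, and 0 at 6 h, where 0.682% passed. FPP-1746 gave 0 at 3 h (0.614% of all counted genes) and 0 at 6 h (0.555%). The counts were also 0 at 1.5-fold, where 0.974% of all counted genes passed with Omomyc and 0.935% with FPP-1746 at 3 h, and 0.935% and 0.906% at 6 h. With such low shares, 0 of 44 does not set the members apart from other genes. The largest difference of either part from PBS was a log2 ratio of 0.43, for Cd68 with Omomyc at 3 h. The medians over the members were 0.045 for each part at 3 h, and 0.026 for Omomyc and 0.0095 for FPP-1746 at 6 h. Over all counted genes they were 0.011 for Omomyc and 0.0054 for FPP-1746 at 3 h, and 0.0014 and 0.0046 at 6 h. Above PBS at 3 h stood 36 of the 44 members with Omomyc and 37 with FPP-1746, against 5630 and 5414 of all 10262 genes. At 6 h 33 and 25 members did, against 5205 and 5366 genes. Whether so small a lean exceeds replicate spread was not tested.

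The fusion also stood apart from its parts directly. Set against Omomyc at 3 h, 7 members were at least 2-fold higher with the fusion (5.56% of all counted genes), and against FPP-1746 7 were (5.86%). At 6 h the counts were 8 against Omomyc (6.59% of all) and 8 against FPP-1746 (6.94%). The fusion lay above all 3 other columns of its time in 41 of 44 members at 3 h (46% of all counted genes) and in 33 of 44 at 6 h (44%). It lay below all 3 in 3 members at 3 h (45.9% of all counted genes) and in 8 at 6 h (47.3%). These comparisons share the same fusion column and are not independent of each other.

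The 3 factor genes did not move alike. Values in this and the next paragraphs are FPKM in the order PBS, Omomyc, FPP-1746 and fusion. Tfeb encodes the factor for which the network is named. It was at 5.77, 5.88, 6.44 and 9.85 FPKM at 3 h and at 7.33, 7.31, 6.79 and 6.38 FPKM at 6 h. The fusion column was thus the highest of 4 at 3 h (log2 ratio 0.68) and the lowest at 6 h (-0.17), and neither ratio passed 2-fold. Tfe3, its close relative, stood at 23.4, 25.4, 24.3 and 39.95 FPKM at 3 h and at 24.3, 24.8, 24.6 and 48.7 FPKM at 6 h. Tfe3 was highest with the fusion at both times, with log2 ratios of 0.75 and 0.97. The latter fell just short of the rule, and passed it with quantile normalisation (1.03) and against the mean of both PBS columns (1.00). In mm9, Tfeb spans 47873986 to 47929365 of chromosome 17 and Tfe3 7339787 to 7352328 of chromosome X.

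Mitf, the family member known from melanocytes and osteoclasts, averaged under 1 FPKM. It was at 0.347, 0.280, 0.280 and 1.23 FPKM at 3 h and at 0.399, 0.353, 0.377 and 1.39 FPKM at 6 h, again highest in the fusion columns. All 5 melanocyte markers examined, among them Tyr and Dct, stayed under 0.3 FPKM in every column, as did all 5 osteoclast markers. The fourth relative, Tfec, was listed at 0 in 7 of the 8 columns and took no part in the counts.

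Among the 20 genes of lumenal proteins, 17 hydrolases and the non-enzymatic Psap, Grn and Npc2, 19 stood above PBS at 3 h and 16 at 6 h, with medians of 0.75 and 0.39. Gla, which encodes the alpha-galactosidase A deficient in Fabry disease, had the highest ratio of all members. At 3 h it was at 8.14, 8.63, 8.58 and 54.6 FPKM, and at 6 h at 7.92, 8.85, 8.25 and 75.2 FPKM. The 6 columns without the fusion lay between 7.92 and 8.85 FPKM and both fusion columns far above them. The fold on the plain FPKM scale was 6.70 at 3 h and 9.50 at 6 h (log2 ratios of FPKM + 1 of 2.60 and 3.09). Gla lies on chromosome X from 131122708 to 131135544 in mm9.

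The cathepsins, the main lysosomal proteases, were among the most abundant members. Ctsd, an aspartic protease, stood at 232, 240, 242 and 585 FPKM at 3 h and at 252, 259, 249 and 556 FPKM at 6 h, log2 ratios of 1.33 and 1.139. Ctsb, a cysteine protease, stood at 96.8, 100.2, 100.3 and 243 FPKM at 3 h and at 94.3, 95.9, 92.4 and 186 FPKM at 6 h (1.32 and 0.97). Ctsl, the cysteine protease with the highest mean FPKM of the lumenal genes, was at 314, 329, 322 and 665 FPKM at 3 h and at 319, 320, 312 and 453 FPKM at 6 h (1.08 and 0.50). For all 3 the fusion column was the highest at both times. With quantile normalisation the ratio at 3 h was 0.89 for Ctsd and 0.67 for Ctsl, below the rule, and at 6 h it was 1.13 for Ctsb, above it. Ctsa and Ctsz, further cathepsin genes, had ratios of 0.78 and 0.69 at 3 h and of 0.40 and -0.07 at 6 h.

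Neu1 and Grn passed the rule at 1 time each. Neu1, the lysosomal sialidase, was at 2.04, 1.94, 1.86 and 5.44 FPKM at 3 h and at 2.96, 2.99, 2.88 and 6.34 FPKM at 6 h, ratios of 1.08 and 0.89. Its call depends on small values: with a pseudocount of 5 the ratio at 3 h was 0.57, and against the mean of both PBS columns it was 0.88. Grn, which encodes progranulin, a protein delivered to the lysosome and cleaved into granulins, was at 57.6, 61.0, 60.7 and 104 FPKM at 3 h and at 51.5, 53.5, 52.1 and 110 FPKM at 6 h (0.84 and 1.08). Against the mean of both PBS columns the ratio of Grn at 6 h was 0.99.

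Some hydrolases of glycan breakdown did not follow. Sgsh, the heparan sulfate sulfamidase, was at 2.01, 1.90, 1.96 and 1.75 FPKM at 3 h and at 2.75, 2.85, 2.84 and 1.87 FPKM at 6 h, the lowest of 4 columns both times (-0.13 and -0.39). Gusb, beta-glucuronidase, was at 38.2, 38.4, 39.7 and 54.4 FPKM at 3 h and at 37.9, 38.4, 39.5 and 28.6 FPKM at 6 h. It was thus highest with the fusion at 3 h (0.50) and lowest at 6 h (-0.39). Naglu, another enzyme of heparan sulfate breakdown, went from 5.01 with PBS to 6.19 with the fusion at 3 h and from 4.61 to 3.60 at 6 h. None of these differences reached 2-fold.

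The other lumenal genes with a ratio between 0.60 and 0.92 at 3 h were Npc2, Psap, Hexa, Asah1, Gaa, Lipa, Glb1, Tpp1 and Man2b1, besides Grn, Ctsa and Ctsz. Npc2 hands cholesterol to the membrane protein Npc1, Psap yields the saposins that help sphingolipid hydrolases, and Hexa, Glb1 and Asah1 act on sphingolipids. Gaa breaks down glycogen, Lipa cholesteryl esters, Tpp1 peptides and Man2b1 mannose-rich glycans. At 6 h Gaa and Glb1 were back near PBS (0.04 and 0.07), whereas Hexa (0.55) and Tpp1 (0.51) were not.

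**Figure D3:**
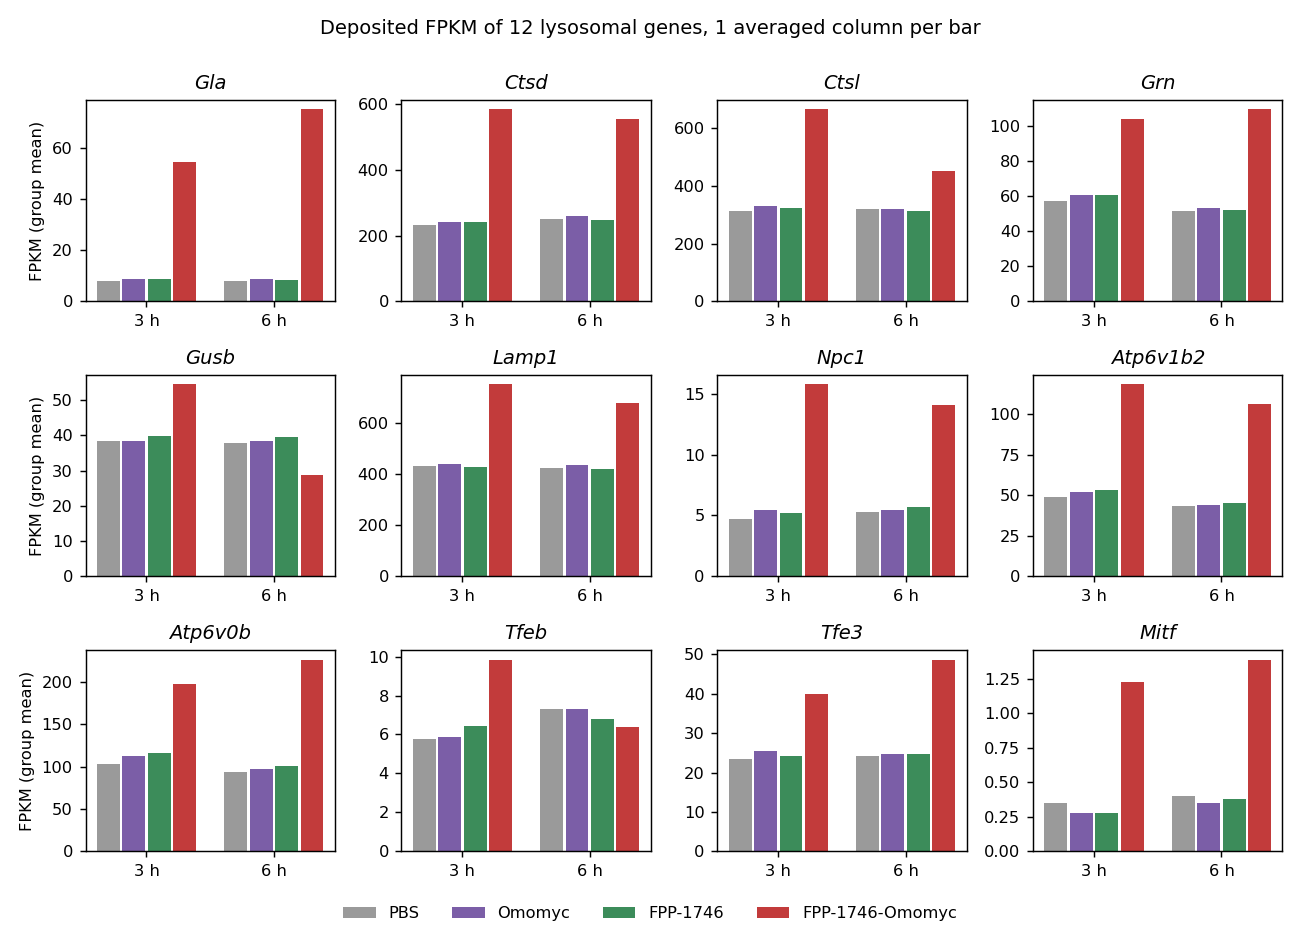
Mean FPKM of 12 members in the 8 columns of the deposited table, 1 bar per group, on axes that start at 0 and differ between panels. Gla reaches 54.6 and 75.2 FPKM with the fusion, while Gusb and Tfeb are highest with the fusion at 3 h and lowest with it at 6 h.

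All 7 genes of membrane proteins stood above PBS at both times, with medians of 0.86 at 3 h and 0.51 at 6 h. Npc1, the cholesterol exporter of the lysosomal membrane, was at 4.74, 5.43, 5.200 and 15.8 FPKM at 3 h and at 5.25, 5.45, 5.72 and 14.04 FPKM at 6 h. Both fusion columns lay above the other 6, with ratios of 1.55 and 1.27, and with a pseudocount of 5 the ratio at 6 h was 0.89. The record of Npc1 overlaps that of 3110002H16Rik, which reached 29.45 FPKM, and reads of the 2 cannot be told apart here. Lamp1, which encodes a major glycoprotein of the lysosomal membrane, was at 432, 439, 428 and 751 FPKM at 3 h and at 426, 436, 420 and 678 FPKM at 6 h (0.80 and 0.67). It had the highest mean FPKM of all members and did not reach 2-fold. Scarb2, the receptor that brings beta-glucocerebrosidase to the lysosome, had the lowest ratios of the 7, at 21.2, 21.5, 21.3 and 28.0 FPKM at 3 h and at 20.3, 20.9, 20.7 and 24.3 FPKM at 6 h (0.39 and 0.25).

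Cd68, a lysosomal glycoprotein best known from macrophages, was at 1.05, 1.76, 1.57 and 3.49 FPKM at 3 h and at 1.38, 1.34, 2.00 and 2.75 FPKM at 6 h. Its ratios were 1.13 and 0.66, and with a pseudocount of 5 the ratio at 3 h was 0.49. The columns without the fusion spread from 1.05 to 2.00 FPKM, the widest relative spread among the named membrane genes. Of 15 macrophage markers found in the table, the 13 other than Cd68 and Cd14 were each under 0.3 FPKM in every column, with a summed level of 0.015 to 0.143 FPKM per column and 5 of them at 0 throughout. Cd14 was at 10.1 FPKM with PBS and 77.4 with the fusion at 3 h and at 12.9 and 118 at 6 h. Mcoln1, the lysosomal calcium channel whose product acts upstream of TFEB, had ratios of 0.89 and 0.40, Cd63 0.86 and 0.35, and Lamp2 0.68 and 0.51.

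The V-ATPase genes are spread over 13 V1 and 10 V0 records, of which 9 and 6 were counted. Of the 9 counted V1 genes, 8 stood above PBS at 3 h and 7 at 6 h, and their median barely differed between times, 0.74 and 0.71. Atp6v1b2, the non-catalytic B subunit, was at 49.2, 52.3, 53.0 and 118 FPKM at 3 h and at 43.6, 44.1, 45.1 and 106 FPKM at 6 h (1.25 and 1.26). Atp6v1d, part of the central rotor, was at 31.5, 31.7, 31.5 and 58.2 FPKM at 3 h and at 29.1, 28.8, 27.6 and 73.3 FPKM at 6 h (0.87 and 1.30). In both genes the 6 columns without the fusion lay close together and both fusion columns above them. Atp6v1b2 lies on chromosome 8 from 71561607 to 71637616 and Atp6v1d on chromosome 12 from 79943969 to 79962625, in mm9.

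The other V1 subunits named by the rule marked the ends of the range. Atp6v1f, the rotor subunit F with the highest mean FPKM among V1 genes, was at 92.1, 94.8, 95.3 and 164 FPKM at 3 h and at 88.3, 89.3, 86.6 and 124 FPKM at 6 h (0.83 and 0.49). Atp6v1g2, an isoform of stalk subunit G known from neurons, was at 1.40, 1.87, 1.41 and 0.912 FPKM at 3 h and at 1.83, 1.64, 1.27 and 1.02 FPKM at 6 h. It was lowest with the fusion at both times (-0.33 and -0.49), at levels near the filter. The ubiquitous isoform Atp6v1g1 had ratios of 0.27 and -0.08. Atp6v1a, the catalytic subunit, had ratios of 0.70 and 0.55, and Atp6v1h, Atp6v1e1 and Atp6v1c1 lay between 0.52 and 0.77 at 3 h and between 0.71 and 0.87 at 6 h.

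The V0 sector was the most divided. Of its 6 counted genes 5 stood above PBS at 3 h and 3 at 6 h, with medians of 0.53 and 0.093. Atp6v0b, the proton-carrying c'' subunit, was at 103, 112, 116 and 197 FPKM at 3 h and at 94.0, 97.6, 101 and 226 FPKM at 6 h (0.92 and 1.26). The record of Atp6v0b spans 117556935 to 117559934 of chromosome 4 in mm9. Atp6v0d1, which couples the rotor to the membrane ring, had ratios of 0.69 and 0.92. Against these, Atp6v0a2, a membrane subunit isoform of Golgi and endosomes, was at 20.3, 20.1, 20.5 and 13.6 FPKM at 3 h and at 23.5, 24.3, 25.0 and 17.9 FPKM at 6 h. It was the lowest column each time, with ratios of -0.54 and -0.37. The other isoform, Atp6v0a1, had ratios of 0.22 and -0.21, and Tcirg1, the a3 isoform outside the Atp6v symbols, stood at 11.3 FPKM with PBS and 21.0 with the fusion at 3 h, and at 24.4 and 20.03 at 6 h.

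Isoforms known from specialised tissues were nearly silent. Atp6v1b1, Atp6v1e2, Atp6v1g3, Atp6v0d2 and Atp6v0a4 were at or near 0 in all columns, with no value over 0.053 FPKM. Atp6v1c2 reached 0.155 FPKM at most and the pseudogene Atp6v0c-ps2 0.059 FPKM. Atp6v0c, the main subunit of the proton-carrying ring, was listed at 0.049 FPKM with PBS and 0.516 with the fusion at 3 h, far below its partner subunits. Its record overlaps that of Atp6v0c-ps2, a copy of the gene, and reads that fit several copies can be split or dropped in counting, so its level is uncertain.

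**Figure D4:**
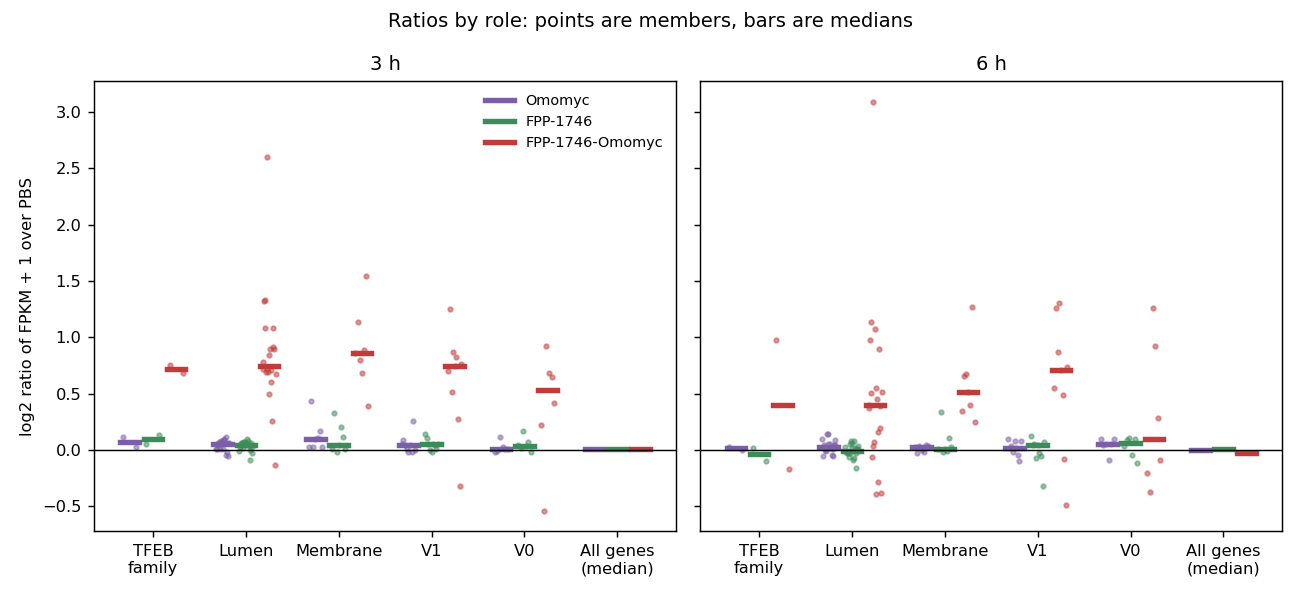
Log2 ratio of each treatment over PBS by role of the member, at 3 h (left) and 6 h (right); points are genes, thick bars medians, and the last group gives the median of all counted genes. With the fusion the medians lie between 0.53 (V0) and 0.86 (membrane) at 3 h and between 0.093 (V0) and 0.71 (V1) at 6 h.

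Between 3 h and 6 h the ratio to PBS became smaller in 35 of the 44 members and larger in 9. The 9 comprised 3 V1 genes, 3 V0 genes, Tfe3, and Gla and Grn among the lumenal genes, and no membrane gene. The share of all counted genes with a smaller ratio at 6 h was not computed. Their median also fell between times at higher levels. It went from 0.46 to -0.24 at 300 FPKM and above, and from 0.14 to -0.31 between 100 and 300. Between 30 and 100 FPKM it went from -0.025 to -0.18, and below 30 FPKM it rose. At 30 FPKM and above the fall is thus not particular to the members. Below 30 FPKM the member medians fell where those of all counted genes rose. They went from 0.60 to -0.092 over 11 members between 1 and 10 FPKM. Between 10 and 30 FPKM they went from 0.73 to 0.42 over 6 members. Within the fusion columns, 6 h against 3 h gave a median log2 ratio of -0.30 over the members, from -0.90 for Gusb to 0.46 for Gla. None reached 2-fold between those columns, where 12.2% of all counted genes did, and 8 members (18.2%) were at least 1.5-fold lower, a share close to the 20.2% of all counted genes. Within PBS, 6 h against 3 h gave 0 of 44 members past 2-fold (0.867% of all counted genes), with ratios from -0.38 for Lipa to 0.38 for Neu1. Whether the 3 h and 6 h ratios of a gene differ beyond replicate spread was not tested.

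Other lysosomal genes were taken from a list of 94 symbols drawn up by function, of which 79 were counted. At 3 h 63 stood above PBS and 16 below, with a median of 0.45, and 6 were called higher and 0 lower. Those 6 are 7.59% of the list, near the 6.13% of all counted genes called higher. At 6 h 54 stood above and 25 below, with a median of 0.26, and 6 were called higher (7.59%, against 7.13% of all counted genes) and 1 lower (1.27%, against 3.34%). At 1.5-fold, 29 of the 79 were higher at 3 h, against 15.7% of all counted genes, and 22 at 6 h, against 17.4%. At that fold 1 was lower at 3 h and 4 at 6 h, where 1492 and 1564 of all 10262 counted genes were. Of the 6 genes called at 3 h, 3 belong to the machinery that controls mTORC1 and TFEB at the lysosomal surface, of which 11 genes were counted. Flcn, a GTPase activator for RagC and RagD, was at 10.3, 10.3, 9.60 and 61.0 FPKM at 3 h and at 10.5, 9.01, 10.5 and 22.6 FPKM at 6 h (2.46 and 1.03). Its partner Fnip1 was at 3.66, 4.31, 4.45 and 22.8 FPKM at 3 h and at 4.75, 5.07, 4.72 and 14.5 FPKM at 6 h (2.35 and 1.43). Rragc, which encodes RagC, was called at 3 h (1.03), while Rragb was the gene called lower at 6 h (-1.097).

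The remaining calls in the wider list were scattered over its roles. Ctns, the cystine exporter, had ratios of 1.01 and 1.16, and Atp6ap2, an accessory subunit of the V-ATPase, 1.11 and 1.15. Laptm4b passed at 3 h (1.00), and the amino acid transporter gene Slc36a1 (1.33) and the peptidase gene Dpp7 (1.70) at 6 h. Among the 27 counted genes that this list groups with the hydrolases, the median was 0.53 at 3 h and 0.12 at 6 h, with 0 and 1 called. Lowest in that group was Gnptab, with ratios of -0.73 and -0.94, which makes the mannose 6-phosphate tag in the Golgi and is not itself a lysosomal hydrolase. The lowest hydrolase was Ids (-0.36 and -0.82). The receptors and tethers of lysosomal delivery had medians of 0.36 and 0.32 over 14 genes, with none called.

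The level of a gene went with its ratio over the whole table, and the members were set beside genes of like level. In the range of at least 300 FPKM, the median over 229 genes at 3 h was 0.46 and that of the 5 members 0.89. From 100 to 300 FPKM the medians were 0.14 over all genes and 0.83 over 7 members, and in the 3 lower ranges -0.035 to 0 against 0.60 to 0.73. At 6 h the medians of all genes ran the other way, from 0.089 in the lowest range to -0.31 between 100 and 300 FPKM. The members were at -0.092 below 10 FPKM and at 0.42 to 0.55 above. By transcript length the medians of all genes at 3 h ran from -0.044 to 0.16 and those of the members from 0.67 to 0.76. The part of level and length in the members' ratios was not tested beyond this.

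**Figure D5:**
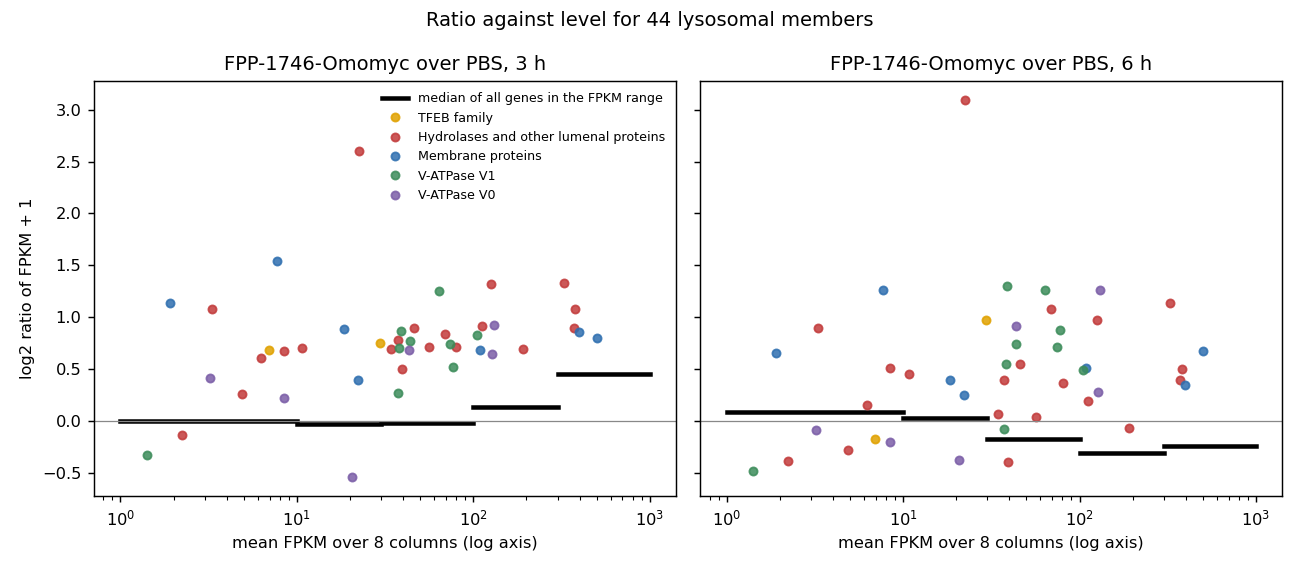
Log2 ratio of FPP-1746-Omomyc over PBS at 3 h (left) and 6 h (right) against the mean FPKM over the 8 columns (log axis) for 44 members, coloured by role, with black bars for the median of all counted genes in 5 ranges of FPKM. At 3 h the bar rises to 0.46 at the highest levels, and at 6 h it falls to -0.31 between 100 and 300 FPKM, below most members in those ranges.

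The column totals ran from 445657 to 594951 FPKM, the latter in the fusion at 3 h, and 10035 to 10288 genes reached 1 FPKM. By the step between low values, 1 FPKM of a 2000-base transcript was worth about 66.1 fragments in the fusion at 3 h and up to 106 in the others, a rough estimate from 29 to 48 genes a column. Markers of the labelled cell type were present, with Vim at up to 5128 FPKM and a summed level of 3517 to 5368 FPKM over the 9 markers. The 8 of them that were counted had themselves a median log2 ratio of fusion over PBS of 0.67 at 3 h (8 above PBS, 2 called higher) and 0.89 at 6 h (7 above, 4 called higher), and their part in the members' ratios was not tested. By contrast, all 9 epithelial markers, all 4 endothelial markers and 2 of 3 adipocyte markers stayed under 0.3 FPKM. Thy1 was the mesenchymal marker that stayed under 0.3 FPKM. Of the counted members, 7 have a locus that the table shares with another record, among them the called genes Npc1, Ctsb and Atp6v1b2. The overlapping record reached 29.45 FPKM for Npc1 and 20.12 for Ctsb, but only 0.007 for Atp6v1b2. Without those 7 the count at 3 h was 5 of 37.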

How the data were processed

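Total RNA of 24 samples, 3 biological replicates in each of 8 groups, was sequenced, and the authors deposited 1 table of FPKM values with 1 averaged column per group. Per the submitters' processing notes the tools were STAR 2.1.3, bcl2fastq 2.17.1.14, Cuffnorm 2.2.1 and Cufflinks 2.2.1 with build mm9. Order, settings and strand use: not given in the sources used here, so overlapping genes cannot be told apart. There were 0 columns of other series.

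From these values log2 ratios of FPKM + 1 were computed in Python 3.11.15 (numpy 2.4.6, pandas 2.3.3, matplotlib 3.10.9), over the 10262 genes that averaged 1 FPKM or more, and called at 2-fold. The size rule was checked on simulated columns. Because replicate values were not analysed, there was no test. The members, lists and roles were chosen with earlier results of these data known. Named with all 8 values were the TFEB family, every member called at either time, and for each role the genes with the highest and lowest ratio and the highest mean. Of the wider list up to 4 called genes per role and direction were named, and of marker lists the ranges. Genes beyond this rule, such as Naglu, Mcoln1, Tcirg1 and Gnptab, were named after their values were seen. Of the 94 symbols 93 had a row.

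Alternatives were pseudocounts of 0.1 and 5, no filter, 2 rescalings, a 1.5-fold rule, the mean of both PBS columns as reference, and shared loci left out. Positions (mm9) were taken from the table after adding 1 to each start: of 20652 genes compared with RefSeq, the span was equal for 7165 if starts count from 0 and for 456 if from 1. Promoter windows are RefSeq's for GRCm38.p6 and matched 43 of 53 members. The last 30 bases of 49 of 53 windows of the members occurred in a transcript of the gene.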

Additional observations from a re-analysis of the deposited data

Results flagged for a closer look

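In 5 members the fusion stood above PBS and both parts at 3 h and below all 3 at 6 h. Over all counted genes, it lay above all 3 at 3 h in 46% and below all 3 at 6 h in 47.3%. The share of all counted genes that did both was not computed, so the 5 are not set apart from other genes. The log2 ratio over PBS was 0.68 at 3 h and -0.17 at 6 h for Tfeb, 0.50 and -0.39 for Gusb, 0.26 and -0.28 for Naglu, 0.22 and -0.21 for Atp6v0a1 and 0.27 and -0.08 for Atp6v1g1. For Tfeb, PBS itself was higher at 6 h than at 3 h (0.30). Against the mean of both PBS columns the ratios of Tfeb were 0.52 and -0.03. With 1 averaged column per group the difference between times was not tested, and none of these ratios reached 2-fold.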

How the results depend on the processing

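The fusion's member medians stayed between 0.61 and 0.79 at 3 h and between 0.36 and 0.54 at 6 h under the 7 alternatives that bear on a median, and the counts for each part alone stayed at 0 under all 8 alternatives. At 3 h, 34 members passed at 1.5-fold and 5 when shared loci were left out, against 8. At 6 h, 16 passed at 1.5-fold and 11 with quantile normalisation, against 7. With quantile normalisation 6 passed at 3 h, so the time with more calls changed from 3 h to 6 h. In the wider list the count at 3 h, higher and lower together, went from 6 to 10 with a pseudocount of 0.1 and 3 with a pseudocount of 5. It was 3 with quantile normalisation and 30 at 1.5-fold (29 higher and 1 lower). At 6 h it went from 7 to 11 with a pseudocount of 0.1, 2 with a pseudocount of 5 and 26 at 1.5-fold (22 higher and 4 lower). The smaller or larger counts at another pseudocount or fold follow from how those rules are built; for quantile normalisation the cause was not tested. Of 15 single-member ratios called, 9 were called under every alternative run for them, of which 4 belong to genes on shared loci and have no value when those are left out. The 1.5-fold rule, a pseudocount of 0.1, no filter and leaving out shared loci could not remove such a call. None of the 42 ratios of the members named by the rule changed sign. Only the 2 rescalings and the mean of both PBS columns could have changed one. Another pseudocount, the 1.5-fold rule, no filter and leaving out shared loci cannot reverse a ratio. Mitf was run singly only without the filter, so its sign was not put to a check. The ratios of other members, such as Naglu, Atp6v0a1, Atp6v1g1 and Ctsz, were not run singly under the alternatives. No paired analysis was possible because each column is a group average that carries no replicate number, and for the same reason no replicate could be left out. With about 66.1 to 106 fragments behind 1 FPKM of a 2000-base transcript, records under 0.3 FPKM rest on few fragments.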
